A study of Mus musculus with 20 samples.

Results

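The genes described here are the 39 mouse Hox genes of the 4 Hox clusters. They were chosen by symbol alone (Hox, a letter from a to d, then a number and nothing more), which leaves out antisense and other named transcripts, and no measured value entered the choice. They were 39 of the 55421 rows of the deposited tables, 1 row each, with 11 in the Hoxa cluster, 10 in Hoxb, 9 in Hoxc and 9 in Hoxd. In build mm10 the Hoxa cluster lies on chromosome 6, and the rows of the other members span chromosome 11 from 96194316 to 96368256 (Hoxb), chromosome 15 from 102921103 to 103036852 (Hoxc) and chromosome 2 from 74668310 to 74765142 (Hoxd). The number in each symbol is the paralog group, the set of genes that hold the same place in the different clusters.

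The study sequenced total RNA of mouse cells in 20 libraries and asked how CLOCK and BMAL1, the activating transcription factors of the circadian clock, act on the segmentation clock that times somite formation. Embryonic stem cells (ESC) of the KY1.1 line gave 10 libraries. Induced presomitic mesoderm (iPSM), colonies differentiated towards the unsegmented posterior tissue from which somites form, gave the other 10. The iPSM came from E14TG2a ESC with a luciferase reporter under the Hes7 promoter (pHes7-luc), which had been kept without feeder cells in serum with LIF and the inhibitors CHIRON99021 and PD0325901.

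Each cell type had a control line, tetO-Clock/Bmal1 lines, in which doxycycline (dox) induces Clock and Bmal1, and tetO-Clock/Bmal1DN lines, in which it induces Clock with a dominant-negative Bmal1. Among the ESC, clones 1 and 7 carried tetO-Clock/Bmal1 and clones 5 and 6 tetO-Clock/Bmal1DN. Among the iPSM, clones 12 and 20 carried tetO-Clock/Bmal1 and clones 7 and 19 tetO-Clock/Bmal1DN, so that clone 7 is a different line in each cell type. Every line gave 1 untreated and 1 dox library, with 500 ng/mL for 6 h in ESC and 1000 ng/mL for 2 h in iPSM. Replicates are therefore 2 clones per transgene, each a line of its own, and p-values measure the spread between these clones. That spread is pooled over untreated and dox libraries, which the main fits treat as independent though they come from the same clones. Cell type, parental line, culture and count table differ together between ESC and iPSM and cannot be told apart.

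Hox genes encode homeodomain transcription factors that give cells along the head-to-tail axis their positional identity. In the posterior embryo the low-numbered, or anterior, genes of each cluster are switched on first and the higher groups follow in order as the axis extends. CDX factors, WNT, FGF and retinoic acid promote this opening, Polycomb complexes hold it back, and HOX proteins bind DNA together with TALE homeodomain partners of the PBX and MEIS families.

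Summed counts ranged from 40.3 to 57.3 M (mega) per ESC library and from 38.2 to 47.8 M per iPSM library. The untreated iPSM control library stood apart: 69.4% of all rows had a read there, against 50.2% to 54.0% in the other iPSM libraries. Without dox, and in both control libraries, Clock had 30.7 to 62.9 CPM (counts per M counts, scaled with TMM factors) in ESC and 92.4 to 105 CPM in iPSM, and with dox 349 to 1646 CPM in ESC clones and 954 to 2249 CPM in iPSM clones. Arntl, the gene of BMAL1, had 1737 to 4523 CPM with dox in ESC clones and 143 to 4283 CPM in iPSM clones, the lowest in Clock/Bmal1DN clone 19 (61.9 CPM untreated). Of 8 presomitic markers 7 were higher in iPSM, and Tbx6 had medians of 0.266 CPM in ESC and 51.3 CPM in iPSM. All 8 pluripotency markers were lower in iPSM, where Pou5f1 still had 86.1 to 189 CPM. In such bulk samples, fewer cells of a type and less RNA per cell cannot be told apart.

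RefSeq promoter sequence (build GRCm38.p6, the mm10 assembly) was at hand for 22 of the 39 genes, as 24 windows of the 250 bases before a transcription start. The 4 shown belong to genes that recur in the results and hold a motif of the clusters' own regulators or of CLOCK and BMAL1. Hoxb1, with the largest difference between the cell types, has the PBX-HOX motif TGATNNAT in capitals (chr11:96365508-96365757, plus strand). Hoxd4, the highest Hoxd gene in iPSM by counts per gene-body length, has CDX motifs, TTTATG or TTTATA, in capitals (chr2:74721728-74721977, plus strand). Hoxd1 (chr2:74762730-74762979) and Hoxd13 (chr2:74667975-74668224), both on the plus strand and at opposite ends of 1 cluster, have the E-box CACGTG, bound by CLOCK and BMAL1, in capitals.
Hoxb1: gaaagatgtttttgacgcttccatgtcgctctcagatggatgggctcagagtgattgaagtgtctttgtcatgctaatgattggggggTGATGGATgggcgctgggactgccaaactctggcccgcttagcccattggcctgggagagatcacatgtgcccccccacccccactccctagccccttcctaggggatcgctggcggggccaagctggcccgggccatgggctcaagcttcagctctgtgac
Hoxd4: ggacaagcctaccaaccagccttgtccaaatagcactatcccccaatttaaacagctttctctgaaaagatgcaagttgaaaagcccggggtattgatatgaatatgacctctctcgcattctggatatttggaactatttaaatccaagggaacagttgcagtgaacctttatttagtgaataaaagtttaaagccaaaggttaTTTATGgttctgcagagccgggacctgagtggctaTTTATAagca
Hoxd1: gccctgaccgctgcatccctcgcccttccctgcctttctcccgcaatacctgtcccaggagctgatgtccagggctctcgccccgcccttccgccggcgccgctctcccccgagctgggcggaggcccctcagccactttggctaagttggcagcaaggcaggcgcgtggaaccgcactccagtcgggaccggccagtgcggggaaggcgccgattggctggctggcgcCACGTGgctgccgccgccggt
Hoxd13: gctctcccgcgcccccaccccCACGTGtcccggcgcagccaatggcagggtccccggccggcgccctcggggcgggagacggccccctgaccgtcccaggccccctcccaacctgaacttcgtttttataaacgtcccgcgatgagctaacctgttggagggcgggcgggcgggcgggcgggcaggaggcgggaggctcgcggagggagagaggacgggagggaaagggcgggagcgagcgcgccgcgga
Searched on both strands, CACGTG lay in 4 of the 24 Hox windows (Hoxd1, Hoxd10, Hoxd11 and Hoxd13) and in 6.02% of 32851 windows of that length before all genes. The CDX motifs lay in 7 of the 24 (Hoxa7, Hoxa10, Hoxb8, Hoxd3, Hoxd4, Hoxd11 and Hoxd13) and in 20.9% of all windows. TGATNNAT lay in 4 of the 24 (Hoxa2, Hoxb1, Hoxb8 and Hoxd11) and in 7.68% of all. Base composition differed widely: the Hoxd13 window had 74.4% G or C and 31 CpG pairs, and the Hoxd4 window 40.4% and 3. A match describes letters in these windows, not a bound site.

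Levels are compared between genes as RPKM, reads per kilobase of gene body (introns included) and M reads, given as the median of 10 libraries with the lowest and highest. In iPSM the anterior genes led. Hoxb2 had 16.1 (9.10 to 30.1) RPKM, Hoxb1 8.21 (4.44 to 11.4) RPKM, Hoxd4 4.46 (1.99 to 10.1) RPKM and Hoxb4 3.65 (1.56 to 5.75) RPKM. Each of these ranges overlaps the next. Within libraries Hoxb2 was above Hoxb1 in 10 of 10, Hoxb1 above Hoxd4 in 8 of 10 and Hoxd4 above Hoxb4 in 8 of 10. Hoxc4 led its cluster with 1.36 (0.537 to 2.80) RPKM. In ESC the highest was Hoxd13 with 0.415 (0.221 to 1.09) RPKM. Hoxd8 had 0.347 (0.217 to 1.53) and Hoxb2 0.331 (0.102 to 1.13) RPKM, and these ranges also overlap, with Hoxd13 above Hoxd8 in 6 of 10 libraries and Hoxd8 above Hoxb2 in 6 of 10. The order depends on the length used. With the same counts divided by mRNA length, Hoxd8 led in ESC with a median of 1.47 CPM per kilobase, against 0.576 for Hoxd13. In iPSM Hoxb2 still led with 22.4, and Hoxd3 and Hoxa3, whose rows hold reads of other Hox genes, came next with 20.1 and 17.6 CPM per kilobase. Hoxc5 led the Hoxc cluster in ESC with 0.0808 (0 to 0.347) RPKM.

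**Figure D1:**
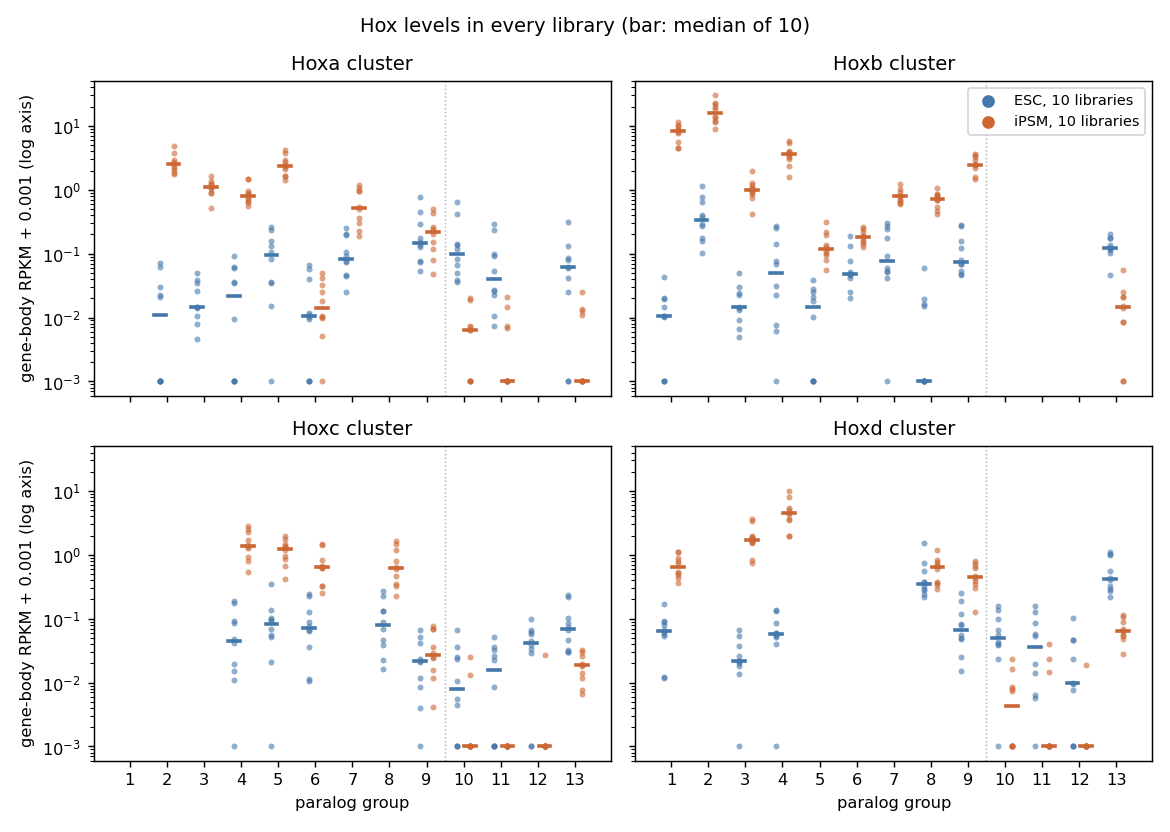
Gene-body RPKM on a log axis (a small constant is added so that zeros can be drawn) for the Hox genes by paralog group, 1 panel per cluster; each point is 1 library (10 ESC, 10 iPSM) and bars are medians. In iPSM the medians run from 16.1 RPKM for Hoxb2 to 0 for Hoxc11; the ranges of Hoxa9, Hoxb9 and Hoxd9 lie above those of the next gene, as does that of Hoxc8 above Hoxc9, and in ESC no median exceeds 0.415 RPKM.

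In iPSM the gene after group 9 had lower values in Hoxa, Hoxb and Hoxd without overlap, and in Hoxc the group 9 gene already did. In all 10 iPSM libraries the group 9 gene was above the next gene of its cluster. Hoxb9 had 1.46 to 3.63 RPKM and Hoxb13 0 to 0.0545 RPKM, and Hoxd9 had 0.128 to 0.804 and Hoxd10 0 to 0.0222 RPKM. The ranges of Hoxa9 (0.0476 to 0.507 RPKM) and Hoxa10 (0 to 0.0195) were also apart, while those of Hoxc9 (0.00315 to 0.0765) and Hoxc10 (0 to 0.0239) overlapped. In the Hoxc cluster the ranges parted 1 place earlier, with 0.629 (0.229 to 1.64) RPKM for Hoxc8 and 0.0261 (0.00315 to 0.0765) RPKM for Hoxc9. Other neighbours with lower values in the second and no overlap included Hoxa5 and Hoxa6, Hoxb2 and Hoxb3, Hoxb4 and Hoxb5, and Hoxd4 and Hoxd8. Values did not only fall along the clusters. They rose without overlap from Hoxa6 to Hoxa7, Hoxb6 to Hoxb7, Hoxb8 (0.425 to 1.09 RPKM) to Hoxb9, and Hoxd12 to Hoxd13. In ESC the group 9 gene was above the next in 8 of 10 libraries for Hoxa9, 3 for Hoxb9, 6 for Hoxc9 and 5 for Hoxd9. The division at group 9 was chosen after the values had been seen.

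The way reads were counted limits several rows, among them Hoxa3 and Hoxd3. The gene body given for Hoxa3 (44053 bases) holds Hoxa4, Hoxa5 and Hoxa6 on the same strand, and that of Hoxd3 holds Hoxd4, so reads on the nested genes count in both rows. Nested genes made up 14.8% to 24.2% of the Hoxa3 counts in iPSM, and Hoxd4 made up 43.2% to 56.0% of the Hoxd3 counts. With these taken off, Hoxa3 had 37.9 CPM (16.5 to 51.8) in iPSM against 0.357 CPM (0.139 to 1.42) in ESC, and Hoxd3 had 30.5 CPM (12.3 to 61.1) against 0.425 CPM (0 to 1.63). Both were still higher in iPSM, without overlap of the libraries.

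Untreated iPSM was compared with untreated ESC over the 4 transgenic clones of each (edgeR quasi-likelihood test, called at a Benjamini-Hochberg adjusted p under 0.05 over all rows tested), and the genes split by paralog group. In groups 1 to 9, 22 of 27 genes were higher in iPSM and 0 lower, 4 did not pass and Hoxa6 had too few reads to be tested. In groups 10 to 13, 8 of 12 were lower in iPSM and 0 higher, Hoxc10 and Hoxd11 did not pass, and Hoxc11 and Hoxc12 were not tested. Of all 26689 rows tested, 31.3% were higher, 28.8% lower and 60% either. The median log2 difference was 2.17 over the 36 Hox genes tested and 0.05 over all rows. A fit over every row with a read, which tests all 39, called 22 higher (18.5% of rows) and 12 lower (18.8%). For 18 Hox genes all 10 iPSM libraries lay above all 10 ESC libraries (16.5% of rows), and for 4 the ESC libraries lay above (15.7%). Without the untreated iPSM control library these counts were also 18 and 4 (17.3% and 16.6% of rows). Of the 22 genes called higher, 19 stayed past the threshold in every alternative fit that tested them, as did 4 of the 8 called lower.

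**Figure D2:**
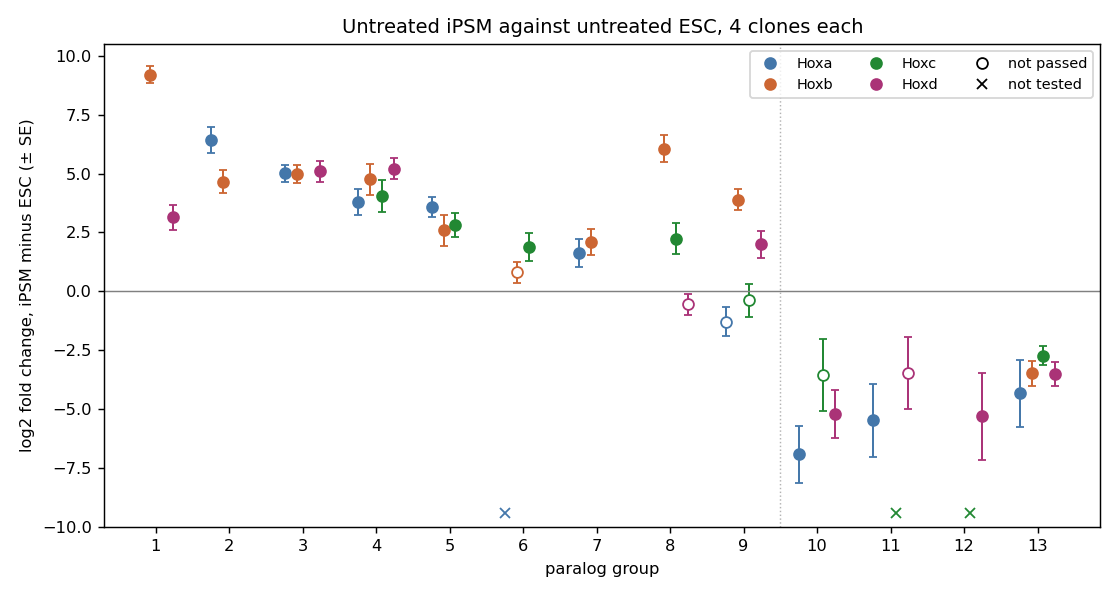
Log2 difference of the Hox genes, untreated iPSM clones minus untreated ESC clones (4 against 4), with its standard error, by paralog group; filled points passed at adjusted p under 0.05. Those of groups 1 to 9 lie between 1.62 (Hoxa7) and 9.20 (Hoxb1), and those of groups 10 to 13 lie below 0.

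Groups 1 and 2 pattern the hindbrain and the arches beside it, and Hoxb1, Hoxb2, Hoxa2 and Hoxd1 were higher in iPSM with no overlap between the 10 and 10 libraries. Values are given for ESC clones 1, 7, 5 and 6 and for iPSM clones 12, 20, 7 and 19, all untreated, and differences as log2 ± SE. Hoxb1, which gives a hindbrain segment its identity and is transcribed early in the primitive streak, had 0.117, 0.0380, 0.0250 and 0 CPM in ESC and 19.7, 14.1, 26.9 and 21.6 CPM in iPSM. The groups did not overlap, and the difference of 9.20 ± 0.34 was the largest among the Hox genes (adjusted p = 7.45e-11), though its ESC side rests on 9 counts. Hoxb2, a target of HOXB1 in the hindbrain, had 0.410, 2.01, 0.950 and 2.96 CPM and 26.1, 53.4, 31.2 and 45.9 CPM, with ESC clones 7 and 6 above the other ESC clones, and differed by 4.66 ± 0.48. Hoxa2 and Hoxd1 are given over all 10 libraries as median and range. Hoxa2, which specifies the branchial arch behind the jaw, had 0.0260 (0 to 0.184) CPM in ESC and 5.76 (3.95 to 11.5) CPM in iPSM (6.42 ± 0.55). Hoxd1 had 0.153 (0.0250 to 0.391) and 1.32 (0.720 to 2.35) CPM (3.15 ± 0.53).

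Groups 3 and 4 act in the neck, and all 7 of their genes were higher in iPSM without overlap of the 10 and 10 libraries. Hoxd4, which acts in the uppermost vertebrae, had 0.449, 1.06, 0.30 and 1.03 CPM in ESC clones 1, 7, 5 and 6 and 13.2, 38.6, 23.3 and 30.1 CPM in iPSM clones 12, 20, 7 and 19. The lowest iPSM clone was far above the highest ESC clone, and the difference was 5.20 ± 0.44 (adjusted p = 1.25e-07). Hoxd3, which shapes the vertebrae below the skull, had 0.801 (0 to 2.66) CPM in ESC and 59.6 (25.7 to 133) CPM in iPSM (5.10 ± 0.44), with the reads of Hoxd4 in both. Hoxa3, needed for the thymus and parathyroids, had 0.652 (0.185 to 2.39) and 45.6 (21.5 to 63.9) CPM (5.02 ± 0.37), and Hoxb3 0.364 (0.104 to 1.33) and 23.5 (9.68 to 42.4) CPM (4.99 ± 0.39). The remaining group 4 genes were alike in direction at lower levels. Hoxb4, also known from blood stem cells, had 0.183 (0 to 1.01) and 11.7 (4.91 to 19.4) CPM (4.75 ± 0.66), Hoxc4 0.121 (0 to 0.505) and 3.19 (1.24 to 6.87) CPM (4.05 ± 0.67), and Hoxa4 0.0473 (0 to 0.209) and 1.61 (1.09 to 3.06) CPM (3.79 ± 0.56).

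Groups 5 and 6 act where the neck passes into the thorax. The 3 genes of group 5 were higher in iPSM without overlap of the 10 and 10 libraries. Hoxa5, which patterns the lower neck and the lung, had 0.288 (0 to 0.803) CPM in ESC and 6.399 (3.75 to 11.7) CPM in iPSM (3.58 ± 0.41). Hoxc5 had 0.316 (0 to 1.38) and 4.29 (1.42 to 7.16) CPM (2.83 ± 0.51), and Hoxb5 0.0377 (0 to 0.106) and 0.291 (0.133 to 0.698) CPM (2.58 ± 0.67). Hoxb5 was the lowest gene of its cluster in iPSM apart from Hoxb13 by RPKM. In group 6 only Hoxc6 was called, with 0.176 (0.0241 to 0.611) and 1.41 (0.525 to 3.25) CPM (1.89 ± 0.59). Hoxb6 had 0.482 (0.192 to 1.90) and 1.57 (1.07 to 2.40) CPM, and its difference of 0.80 ± 0.46 did not pass (adjusted p = 0.142). Hoxa6 was near the detection limit, with 23 counts over 10 ESC and 19 over 10 iPSM libraries.

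Groups 7 to 9 act in the thorax. Hoxb9, which patterns the rib cage, had 0.390, 0.874, 0.250 and 1.61 CPM in ESC clones 1, 7, 5 and 6 and 10.503, 17.2, 7.04 and 12.0 CPM in iPSM clones 12, 20, 7 and 19. The lowest iPSM clone was above the highest ESC clone, and the difference was 3.90 ± 0.46 (adjusted p = 3.09e-06). Hoxb8 had 0 (0 to 0.217) CPM in ESC and 2.33 (1.36 to 3.22) CPM in iPSM (6.06 ± 0.59), and Hoxb7 0.286 (0 to 1.17) and 2.57 (1.97 to 4.43) CPM (2.10 ± 0.56). These 3 Hoxb genes did not overlap between the 10 and 10 libraries. Outside the Hoxb cluster the libraries overlapped for every gene of groups 7 to 9. Hoxa7 had 0.526 (0.156 to 1.61) and 2.93 (1.03 to 7.11) CPM (1.62 ± 0.61, adjusted p = 0.0320), Hoxc8 0.267 (0.0501 to 0.957) and 1.94 (0.692 to 5.27) CPM (2.24 ± 0.67), and Hoxd9 0.176 (0.0390 to 0.684) and 1.06 (0.312 to 1.86) CPM (1.99 ± 0.58). All 3 passed.

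Hoxa9, Hoxc9 and Hoxd8 did not pass. Hoxa9 had 0.661 (0.255 to 3.603) CPM in ESC and 0.874 (0.191 to 2.17) CPM in iPSM, with a difference of -1.29 ± 0.61 (adjusted p = 0.0771). Hoxd8 had 0.817 (0.50 to 3.69) and 1.33 (0.578 to 2.59) CPM (-0.56 ± 0.44), and Hoxc9 0.175 (0 to 0.574) and 0.203 (0.0238 to 0.623) CPM (-0.38 ± 0.70). The sign for all 3 comes from the 4 clones, while their medians over 10 libraries are higher in iPSM. The calls for Hoxa7, Hoxc6 and Hoxc8 were each lost without the untreated library of iPSM clone 19 or of iPSM clone 20, and that of Hoxa7 also without ESC clone 1 or ESC clone 5. Their lowest differences in these fits were 0.98, 1.43 and 1.63.

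Groups 10 to 13 act in the lumbar, sacral and tail region and in the limbs. In iPSM they were near the detection limit, with 230 counts over 12 genes and 10 libraries against 2160 in ESC. Of the 230, 46 came from the untreated control library, the only iPSM library with a read on Hoxc12 or Hoxd12. Hoxd13, which shapes digits and the genital tubercle, had 0.996, 3.55, 1.95 and 3.74 CPM in ESC clones 1, 7, 5 and 6 and 0.341, 0.156, 0.167 and 0.217 CPM in iPSM clones 12, 20, 7 and 19. Every ESC library was above every iPSM library. The 479 and 43 counts of the 4 and 4 clones gave a ratio of 11.3 (8.27 to 15.8), with a 95% exact binomial interval that, like those below, covers counting error only. Hoxb13 had 103 and 9 counts, a ratio of 11.6 (5.89 to 26.1), and Hoxc13 110 and 17 counts, a ratio of 6.57 (3.92 to 11.7), both without overlap of the 10 and 10 libraries. The adjusted p of these 3 were 2.87e-05, 4.33e-05 and 3.06e-05.

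The other lower calls rest on 0 to 2 counts in the iPSM clones. Hoxa10, which suppresses ribs in the lumbar region, had 167 and 1 counts in ESC and iPSM clones, a ratio of 169.6 (30.02 to 6737), and its 10 ESC libraries were all above the iPSM libraries. The untreated library of ESC clone 6, the one with the highest fibroblast marker sum, held 116 of 167 ESC counts, and without it, an alternative chosen after seeing the data, the ratio was 67.5 (11.6 to 2717). Hoxd10 had 44 and 1 counts, a ratio of 44.7 (7.61 to 1804). Hoxa11, a sacral and forelimb gene, had 76 and 2 counts, a ratio of 38.6 (10.3 to 324), and Hoxa13, a digit and hindgut gene, 41 and 2 counts, a ratio of 20.8 (5.41 to 178). Without ESC clone 6 the ratios of Hoxa11 and Hoxa13 were 15.9 (3.94 to 139) and 7.28 (1.59 to 67.6). Hoxd12 had 21 and 0 counts, a ratio of 7.11 when 3 counts over the 4 iPSM libraries are taken as the floor. That ratio leaves out the counting error of the ESC side, and the lower 95% exact binomial limit was 5.29. Of its ESC counts 13 of 21 came from clone 6, and without that library the ratio to the floor was 3.53. By the same floor Hoxc11 (14 and 0 counts) and Hoxc12 (11 and 0 counts), too low to be tested, had ratios of 4.74 and 3.72. Their lower 95% limits were 3.37 and 2.55. Hoxc11 had no read in any of the 10 iPSM libraries, which allows up to 0.00638 CPM over them. Hoxc10 had 21 and 3 counts, a ratio of 7.11 (2.12 to 37.2), and Hoxd11 20 and 1 counts, a ratio of 20.3 (3.25 to 842), and neither passed in the fit. Without ESC clone 6 the ratio of Hoxd11 was 7.94 (0.963 to 365). The calls for Hoxa11 and Hoxa13 were lost without the untreated library of ESC clone 6 or of ESC clone 7, and that of Hoxa13 also without iPSM clone 12. The call for Hoxd12 was lost without ESC clone 7 or any 1 of the 4 iPSM clones and in DESeq2, and those of Hoxa13, Hoxd10 and Hoxd12 with the control line added. Hoxa10, Hoxb13, Hoxc13 and Hoxd13 kept theirs in every alternative that tested them.

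Within ESC, the summed Hox counts of both ends of the clusters were high in the libraries with high fibroblast markers. Summed over groups 1 to 9 (nested reads counted in both rows), the untreated ESC libraries of the control, clone 1, clone 7, clone 5 and clone 6 had 5.08, 7.65, 20.9, 8.58 and 32.4 CPM. Over groups 10 to 13 they had 2.96, 2.38, 6.56, 4.23 and 10.8 CPM in the same order. The sum of 8 fibroblast markers (Col1a1, Col1a2, Col3a1, Thy1, Twist2, Prrx1, Postn and Dcn) was 59.4, 87.9, 249.9, 96.0 and 487 CPM. Clones 6 and 7 led in all 3 sums, and clone 6 was the highest untreated ESC library for 27 of the 39 genes. The share of all rows for which it was highest was not counted. In the same order Hoxb13 had 0.409, 0.605, 0.684, 0.450 and 0.413 CPM, highest in clone 7. Hoxc13 had 0.722, 0.390, 0.551, 0.850 and 0.620 CPM, highest in clone 5. With dox, clone 6 had 8.07 CPM for groups 1 to 9, 3.02 for groups 10 to 13 and 65.7 for the markers, and clone 7 had 21.5, 11.03 and 238 CPM. In iPSM the marker sum was 15.9 to 27.3 CPM, and none of the 8 markers was at 0 in all 10 libraries of a cell type. Of the 8 markers 7 were lower in iPSM and Dcn did not pass. Whether the KY1.1 cells grew on feeder cells is not given in the sources used here, and the part of fibroblast RNA in the Hox counts was not tested.

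**Figure D3:**
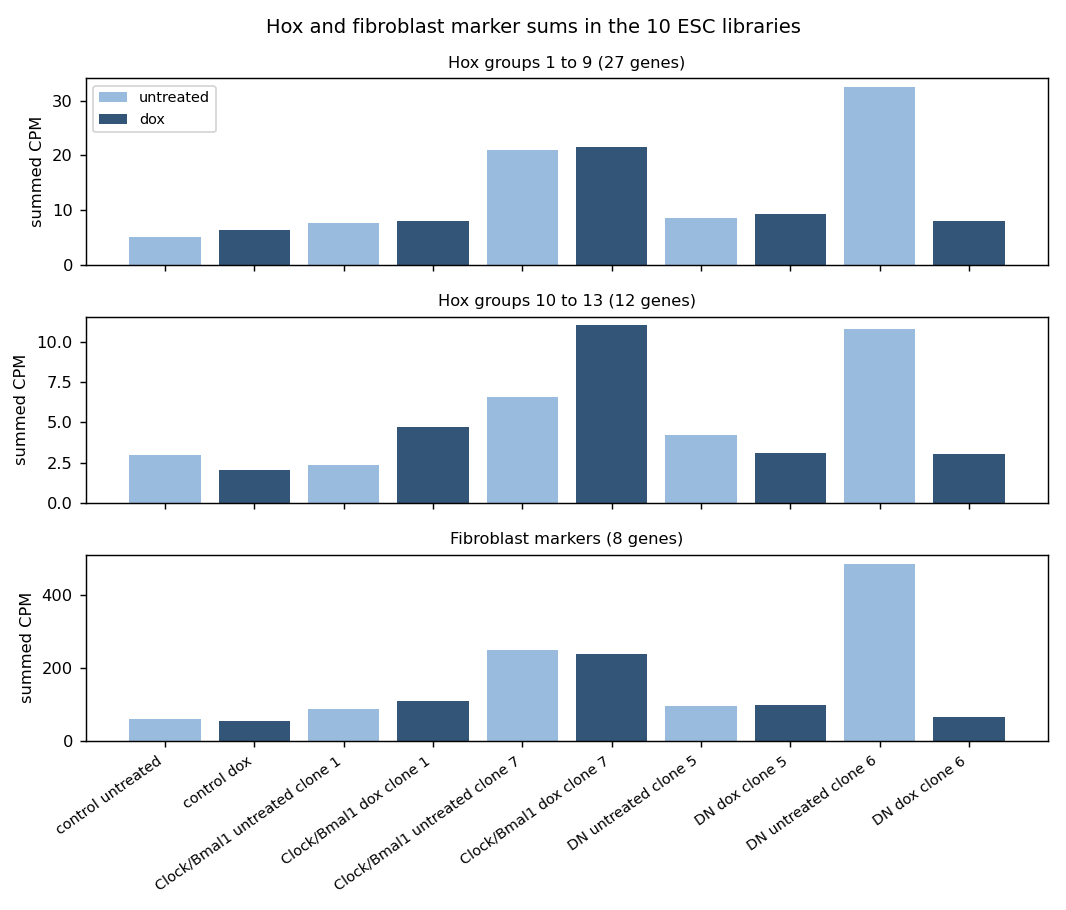
Summed CPM in each of the 10 ESC libraries for the 27 Hox genes of groups 1 to 9, the 12 of groups 10 to 13 and 8 fibroblast markers; DN stands for Clock/Bmal1DN. The untreated library of DN clone 6 (32.4 CPM for groups 1 to 9) and both libraries of Clock/Bmal1 clone 7 (20.9 and 21.5 CPM) hold the highest sums for groups 1 to 9 and for the markers.

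A fit without the untreated libraries of ESC clones 6 and 7, chosen after seeing the data, leaves 1 untreated ESC library per transgene. The fold difference grew by more than 1.5 times for 19 of the 22 genes called higher in the fit of all clones and shrank by as much for 1, and their median log2 difference went from 3.97 to 5.16. How many of all rows moved as much in this fit was not counted. For the 7 lower genes tested in both fits the median went from -4.34 to -2.77, and 5 moved towards 0 by more than 1.5 times in fold. Hoxb9 then differed by 5.13 ± 0.49 and Hoxd13 by -2.70 ± 0.50, while Hoxa11 and Hoxa13 no longer passed.

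Of 18 listed inputs to the clusters 12 were higher in iPSM and 4 lower (66.7% and 22.2%, against 31.3% and 28.8% of all rows), with a median log2 difference of 2.41, against 0.05 over all rows. The CDX factors, which bind Hox enhancers and open the trunk part of the clusters, were among the higher ones. Cdx1 had medians of 0.992 CPM in ESC and 94.9 CPM in iPSM (6.73 ± 0.20), Cdx2 2.86 and 102 CPM (4.98 ± 0.46), and Cdx4 0.385 and 26.2 CPM (6.00 ± 0.30). T (Brachyury), a mesoderm factor, differed by 5.23 ± 0.42, Zbtb16, a repressor that acts on Hoxd genes, by 6.03 ± 0.41, and Aldh1a2, an enzyme of retinoic acid synthesis, by 5.33 ± 0.50. Gdf11, a signal for the passage from trunk to tail Hox genes, had 3.94 CPM in ESC and 29.5 CPM in iPSM (2.71 ± 0.24). The 4 lower ones were Fgf4, an FGF ligand, with medians of 208 and 22.6 CPM (-3.30 ± 0.28), Rarg, a retinoic acid receptor, with 86.3 and 23.8 CPM (-1.72 ± 0.15), the WNT ligand Wnt5a (-1.77 ± 0.52) and the RNA-binding Lin28a (-0.72 ± 0.11).

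Of 9 TALE partners 5 were higher in iPSM and 1 lower (55.6% and 11.1%, against 31.3% and 28.8% of all rows, median 1.28). Meis2 had medians of 3.55 CPM in ESC and 184 CPM in iPSM (4.96 ± 0.30), Pknox2 2.03 and 57.5 CPM (4.58 ± 0.41) and Pbx3 16.6 and 145 CPM (3.08 ± 0.18). Of 24 Polycomb and Trithorax genes, which repress or maintain Hox transcription, 7 were higher and 10 lower (29.2% and 41.7%, median -0.30), so the share that was higher is near that of all rows. Phf19 and Cbx7, both of Polycomb complexes, differed by -2.86 ± 0.38 and -2.17 ± 0.16, Ash2l, a subunit of Trithorax-type methyltransferases, by -1.67 ± 0.15, and Kdm6b, a demethylase that removes the Polycomb mark, by 1.69 ± 0.27. Of 16 tested genes that flank the clusters 10 were higher and 5 lower (62.5% and 31.2%, median 0.58). Evx1, beside the group 13 end of the Hoxa cluster, had 0.563 and 25.04 CPM (5.24 ± 0.36), while its neighbour Hoxa13 had at most 0.0423 CPM in iPSM. Beside the Hoxb cluster Skap1 was higher in iPSM (4.49 ± 0.27), and Calcoco2 (-6.62 ± 0.42) and Ttll6 (-5.57 ± 0.63) were lower.

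The effect of dox was tested for 31 Hox genes in ESC and 28 in iPSM, those with enough reads there. In the Clock/Bmal1 clones none passed (edgeR, 0 of 31 in ESC and 0 of 28 in iPSM), while 0.422% of rows did in ESC (0.404% higher, 0.0178% lower) and 1.02% in iPSM (0.996% higher, 0.0282% lower). At an unadjusted p under 0.05 there were 1 in ESC and 2 in iPSM. None passed in the Clock/Bmal1DN clones, against 0.00444% of rows in ESC and 0.00403% in iPSM, with 2 and 0 at an unadjusted p under 0.05. The difference between the transgenes' effects in iPSM called 0 of 28 Hox genes and 0.278% of rows, with 0 at an unadjusted p under 0.05. The shares of all rows under that unadjusted p are not given here, so these unadjusted counts cannot be set against them. DESeq2 called 0 Hox genes in these 5 tests.

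In the Clock/Bmal1 iPSM, Hoxb1 and Hoxb2 were lowest in p. Hoxb1 had 19.7 and 14.1 CPM in untreated clones 12 and 20 and 10.48 and 10.51 CPM with dox, a log2 difference of -0.67 ± 0.21 (adjusted p = 0.343). Hoxb2 had 26.1 and 53.4 CPM untreated and 20.2 and 26.4 CPM with dox, a difference of -0.74 ± 0.31 (adjusted p = 0.739). Both had lower values with dox in 2 of 2 clones, without passing the threshold. Hoxb2 passed in 2 alternative edgeR fits, with -0.75 (adjusted p = 0.00222) without a filter on low counts and with -1.17 (adjusted p = 0.0207) without the untreated library of clone 12, a fit that leaves 1 untreated Clock/Bmal1 library, assumed to vary like the other groups. In Clock/Bmal1DN clones 7 and 19, Hoxb1 had 26.9 and 21.6 CPM untreated and 18.1 and 23.6 CPM with dox. Hoxb2 had 31.2 and 45.9 CPM untreated and 31 and 41.5 CPM with dox there. The difference between the transgenes' effects was -0.46 ± 0.29 for Hoxb1 and -0.66 ± 0.43 for Hoxb2, and neither passed.

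Hoxb9 had 10.503 and 17.2 CPM in untreated Clock/Bmal1 iPSM clones 12 and 20 and 7.73 and 14.3 CPM with dox (-0.30 ± 0.33), and 7.04 and 12.0 CPM in untreated Clock/Bmal1DN clones 7 and 19 and 11.7 and 12.3 CPM with dox (0.33 ± 0.33). Hoxd4 had differences of -0.20 ± 0.45 and 0.14 ± 0.45 in the same lines. None of these passed.

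**Figure D4:**
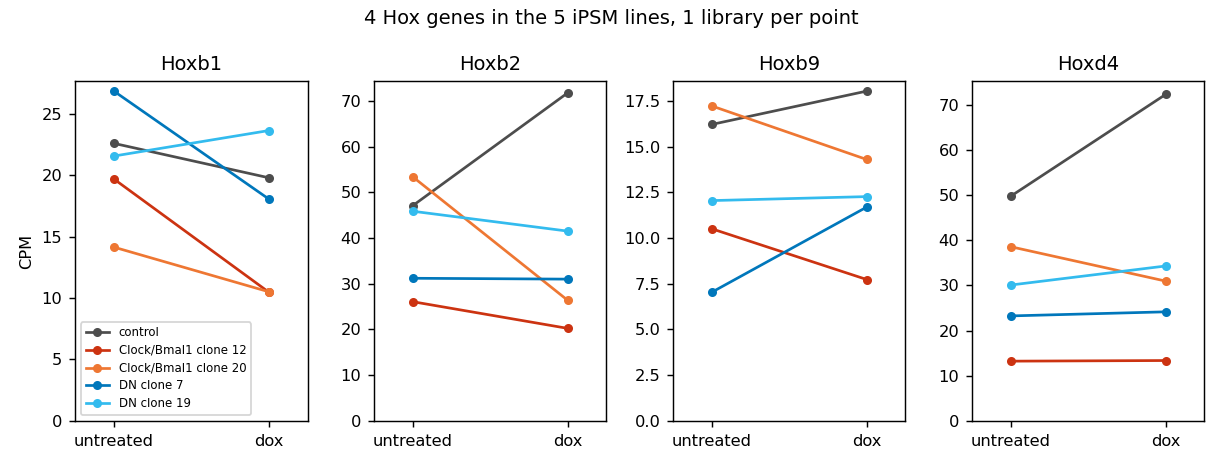
CPM of Hoxb1, Hoxb2, Hoxb9 and Hoxd4 in the 5 iPSM lines without and with dox, 1 library per point; DN stands for Clock/Bmal1DN. Hoxb1 and Hoxb2 have lower values with dox in Clock/Bmal1 clones 12 and 20, and the control line is highest for Hoxd4, with 49.8 and 72.3 CPM.

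Line by line, 23 of the 28 Hox genes had lower values with dox in Clock/Bmal1 iPSM clone 12 and 25 of 28 in clone 20, with median log2 differences of -0.30 and -0.42. In Clock/Bmal1DN clones 7 and 19, 11 and 9 of 28 had lower values (medians 0.13 and 0.06), and in the control line 6 of 28 (median 0.36). The median over all 24805 rows was within 0.01 of 0 in each of these lines. These counts each describe 1 pair of libraries, and genes of a cluster are not independent. The sum of 8 presomitic markers was 713 CPM untreated and 704 with dox in clone 12, and 1030.0 and 853 CPM in clone 20. It was 1136 and 967 CPM in clone 7, 1215 and 1177 CPM in clone 19, and 1099 and 1348 CPM in the control line. The marker sum was thus lower with dox in all 4 clones and higher in the control line. It includes Lfng, itself called higher with dox in Clock/Bmal1 iPSM (2.35 ± 0.43, edgeR adjusted p = 0.0253), and Hes7, which had 7.17 and 20.0 CPM untreated and 21.1 and 30.1 CPM with dox in clones 12 and 20. Without these 2 genes, an alternative chosen after seeing the data, the sum went from 698 to 639 CPM in clone 12, from 991 to 734 in clone 20, from 1101 to 940.5 in clone 7, from 1175 to 1137 in clone 19 and from 1050.5 to 1283 CPM in the control line. In clones 12 and 20 Tbx6 had 20.2 and 51.2 CPM untreated and 12.7 and 31.3 with dox, and Msgn1 20.0 and 33.5 and then 13.2 and 16.6 CPM. The part of these markers in the Hox values was not tested.

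**Figure D5:**
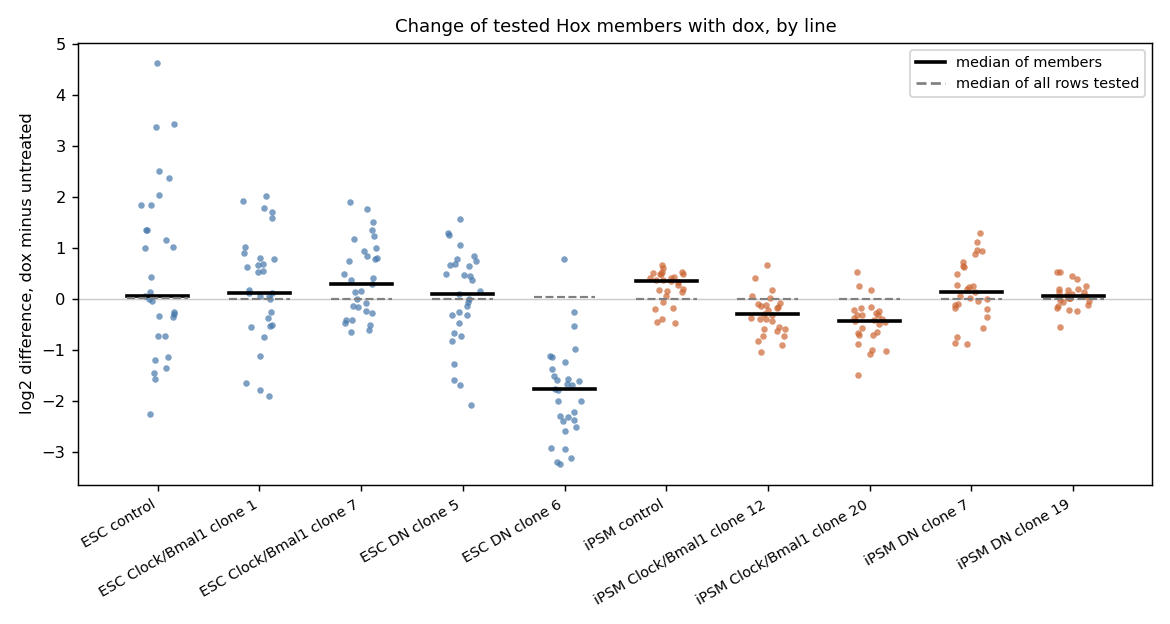
Log2 difference, dox minus untreated, for tested Hox genes in each line, with the median over all Hox genes tested (31 in ESC, 28 in iPSM); DN stands for Clock/Bmal1DN and points are spread sideways. Medians are -0.30 and -0.42 in the Clock/Bmal1 iPSM clones, 0.36 in the iPSM control line and -1.76 in ESC DN clone 6.

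In ESC, Hoxc13 came nearest to the threshold. It had 0.390 and 0.551 CPM in untreated Clock/Bmal1 clones 1 and 7 and 1.73 and 1.99 CPM with dox, a difference of 1.94 ± 0.42 (adjusted p = 0.127). Both dox libraries were above the other 8 ESC libraries. It passed in the edgeR fit without a filter on low counts (1.95, adjusted p = 0.0234). In Clock/Bmal1DN clones 5 and 6 it had 0.850 and 0.620 CPM untreated and 0.251 and 0.260 CPM with dox (-1.54 ± 0.45, adjusted p = 0.983), and in the control line 0.722 and 0.255 CPM. The difference between the transgenes in ESC was not tested.

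In the Clock/Bmal1DN ESC, 30 of 31 Hox genes had lower values with dox in clone 6 (median -1.76) and 14 of 31 in clone 5 (median 0.10). The median over all 22500 rows was 0.04 in clone 6 and 0.003 in clone 5, and the share of all rows with lower values was not counted. The untreated library of clone 6 is the one with the highest fibroblast marker sum, 487 CPM against 65.7 CPM with dox, and the part of this in the Hox values was not tested. In the edgeR fit without a filter on low counts, Hoxa9 (-1.86, adjusted p = 0.0224) and Hoxd8 (-1.75, adjusted p = 0.0374) passed as lower. Hoxa9 had 0.575 and 3.603 CPM untreated in clones 5 and 6 and 0.829 and 0.339 CPM with dox, and Hoxd8 0.50 and 3.69 and then 0.704 and 0.573 CPM. In clone 5 neither had a lower value with dox.

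The iPSM lines were also compared before dox. Untreated Clock/Bmal1 against untreated Clock/Bmal1DN clones called 0 of 28 Hox genes and 0% of rows in edgeR, with 1190 rows at an unadjusted p under 0.05, and DESeq2 called 25 rows and 0 Hox genes. Hoxb1 (-0.51 ± 0.21) and Hoxd8 (-0.78 ± 0.31) were at an unadjusted p under 0.05. Clone 12 had the lowest value of the 5 untreated lines for 11 of the 23 Hox genes with a mean of at least 1 CPM in iPSM, and clone 7 for 9, while the control line had the highest for 13. The same counts were not made over all rows, so they cannot be read as particular to Hox genes. The presomitic marker sums of untreated clones 12, 20, 7 and 19 were 713, 1030, 1136 and 1215 CPM. The untreated control library had 1099 CPM. Clone 12 was thus also lowest in this sum, while clone 7 was not low in it and the control line was not the highest. T weighs heavily in the sum, with 333 CPM in the control and 475, 519, 538 and 584 CPM in these clones. Taken singly, Tbx6, Dll1, Dll3, Rspo3, Hes7 and Lfng were highest in the control among the untreated lines, and T and Msgn1 were not. The part of these markers in the Hox levels of the untreated lines was not tested.

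The control line stood above the clones for many Hox genes. Both of its libraries were above all 8 clone libraries for 12 of the 28 genes, against 4.45% of rows, and below them for 0, against 4.38%. The 12 were Hoxa2, Hoxa3, Hoxa4, Hoxa5, Hoxa9, Hoxb3, Hoxb4, Hoxc5, Hoxc6, Hoxc8, Hoxd3 and Hoxd4. Hoxd4 had 49.8 and 72.3 CPM in the untreated and dox control libraries, and 13.2 to 38.6 CPM (median 27.1) in the 8 of the clones. Hoxd3, which shares its reads, had 105 and 133 CPM in the untreated and dox control libraries, and 25.7 to 68.9 CPM (median 54.7) in the 8 of the clones, and Hoxb4 had 15.95 and 19.4 CPM in the untreated and dox control libraries, and 4.91 to 13.6 CPM (median 10.7) in the 8 of the clones. The untreated control library, the one that stood apart in rows detected, was above all 8 clone libraries for 14 genes, against 23.7% of rows, and below them for 0, against 27.5%. The dox control library alone was above all 8 clone libraries for 20 of the 28 genes, against 13.7% of rows, and below them for 0, against 11.8%. Presomitic markers were mixed. Dll1, a Notch ligand of that list, had 206 and 243 CPM in the control libraries and 47.7 to 148 CPM in the clones. Dll3, Rspo3 and Tbx6 were also above all clone libraries in both, while T, Msgn1, Hes7 and Lfng were not. Lfng, with 27.2 and 35.7 CPM in the control, was exceeded only in Clock/Bmal1 clones 12 and 20 with dox (43.7 and 89.3 CPM). Hes7, with 21.7 and 29.1 CPM, was exceeded only in clone 20 with dox (30.1 CPM). T had 333 and 486 CPM against 373 to 584 CPM. The sum of 7 somite markers was 179.7 and 171 CPM against 17.9 to 120.0 CPM. Most of it came from Aldh1a2, with 172 and 166 CPM against 11.9 to 116 CPM. Tcf15, of the same list, had 2.07 and 2.54 CPM against 2.33 to 4.09 CPM. The part of all these markers in the Hox values was not tested. With 1 control line and no replicate the comparison has no test, and line and transgene cannot be told apart.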

How the data were processed

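Total RNA was sequenced as stranded, paired-end libraries of 101 bases, per the labels. The submitters' processing notes name bcl2fastq, STAR 2.7.2a, HOMER and the mm10 genome. Per the file headers, the authors deposited for each gene body expected counts (estimated counts in steps of 0.5) without normalisation, and RPKM, which the authors scaled by gene-body length and header total. Recomputed from the counts, 100% of RPKM values came out within 1% of the deposited ones. Of the counts 18.1% ended in 0.5, and all were rounded to whole numbers for the fits. Reads in a nested same-strand gene counted in both rows (2784 of 2784 nested pairs with at least 100 counts).

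Fits used edgeR 4.0.16 in R 4.3.3 (TMM factors, filterByExpr, glmQLFit, glmQLFTest, two-sided, Benjamini-Hochberg over all rows tested). All 20 libraries were fitted as 12 groups for the contrast between cell types (8 residual degrees of freedom), and the 10 libraries of a cell type as 6 groups for dox. Adjusted p-values are from edgeR unless DESeq2 1.42.0 is named, and ± marks the SE. Line-by-line differences are log2 CPM with a prior count of 2. In simulated data 99.5% to 100% of 200 rows changed 4-fold were recovered. The simulation gave every row the same dispersion and changed only rows above a minimum expected count. It therefore does not give the power for Hox genes with few counts or a wider spread between clones. Count ratios have 95% exact binomial intervals, and 3 counts are the floor; reads carry no molecular identifiers.

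Clone numbers pair the dox and untreated libraries of a clone, per the labels. The clones' deviations correlated by 0.422 and -0.01 for Clock/Bmal1 and Clock/Bmal1DN in ESC, and by 0.189 and 0.09 in iPSM. The fit with the clone as a replicate block, DESeq2, no filter, upper-quartile factors, the control line added or left out, untreated clones alone and each clone left out were the alternatives. All 39 genes enter the fits and counts; the values of some genes are not reported here. Values by clone or line are given for genes that lead a cluster, were called or recur in the contrasts, with up to 4 called genes of each list by size of difference. The members, lists and rules were chosen with earlier results of these data known, and the inputs, partners and flanking lists are no independent support. Promoter windows are from RefSeq, where a table entry existed.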

Additional observations from a re-analysis of the deposited data

Results flagged for a closer look

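In the 4 untreated clones of a cell type, 1 clone stood far from the others, by Dixon's test at its 95% critical value, for 7 of 75 combinations of Hox gene and cell type that had any spread. Chance flags about 1 in 20, but in 5 of the 7 the other 3 clones were at 0, which fixes the ratio at its highest value, so that rate means nothing for them. Of the 70 other combinations 2 stood out. In ESC, Hoxa10 had 2.66 CPM in Clock/Bmal1DN clone 6 and 0.156 to 0.570 CPM in the others. That library also has the highest fibroblast marker sum, 487 CPM. Hoxd1 had 0.0250 CPM in Clock/Bmal1DN clone 5 and 0.190 to 0.215 CPM in the other ESC clones.

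The other 5 are iPSM values in which 1 clone had 1 to 3 counts and the other 3 clones had 0. Hoxa10 had 0.0197 CPM in Clock/Bmal1DN clone 19, Hoxa11 0.0477 CPM and Hoxd11 0.0238 CPM in Clock/Bmal1DN clone 7, and Hoxc10 0.0569 CPM and Hoxd10 0.0190 CPM in Clock/Bmal1 clone 12.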

How the results depend on the processing

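No result changed direction past the threshold. For untreated iPSM against ESC, 22 Hox genes were called higher, and every refit gave 19 to 23; setting aside Hoxa3, Hoxc5, Hoxd3 and Hoxd4, whose bodies hold another gene, left 18 higher and 8 lower. The 8 called lower became 5 with the control line added, 3 with untreated clones alone, 5 without ESC clones 6 and 7, 12 with no filter, and 5 to 11 with 1 clone left out; their iPSM counts are near 0. The median over all rows was 0.05, and 0.24 with the control line added.

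For dox in Clock/Bmal1 ESC, rows called went from 95 to 355 with DESeq2, 537 with no filter and 7 to 90 with 1 library left out, and Hox genes higher from 0 to 1 with no filter. In Clock/Bmal1 iPSM, 254 rows became 597 with no filter and 83 to 678 with 1 library left out, and Hox genes lower were 1 with no filter and 0 to 1 with 1 library left out. In Clock/Bmal1DN ESC, 1 row became 6 with DESeq2, 463 with no filter (2 Hox genes lower) and 0 to 2 with 1 library left out, and in Clock/Bmal1DN iPSM 8 with no filter and 1 to 2. For the difference between transgenes in iPSM, 69 rows became 157 with DESeq2, 280.0 with no filter and 16 to 167. For untreated Clock/Bmal1 against Clock/Bmal1DN iPSM, 0 rows became 25 with DESeq2, 221 with no filter and 0 to 1779, with 0 to 1 Hox genes lower, Hoxb1 without clone 12 (-0.77, adjusted p = 0.0467). Fits with 1 library left out leave 1 library in that arm for dox and for lines, assumed to vary like the other groups. The cause of these changes was not tested.

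The replicate block (pairing by clone) gave 158 rows in Clock/Bmal1 ESC, 375 in Clock/Bmal1 iPSM, 1 and 1 in Clock/Bmal1DN ESC and iPSM and 132 for the difference between transgenes. It called 0 Hox genes in each, so no call of a Hox gene changed. No paired analysis was possible for the contrasts between different lines because they share no clones. Depth limits groups 10 to 13 in iPSM, where a gene in 4 libraries needs about 0.0158 CPM to reach the floor.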

Other observations

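Other rows inside or beside the clusters are described here as values. Antisense rows beside the anterior genes were high in iPSM: Hoxb3os had 29.99 (13.3 to 58.1) CPM in iPSM and 0.110 (0.0464 to 0.208) CPM in ESC, as median and range over 10 libraries. Hoxaas3, antisense in the Hoxa cluster, had 20.1 (10.3 to 29.0) and 0.177 (0.0750 to 0.402) CPM, and Hoxb5os, which covers Hoxb5, 13.97 (8.53 to 31.3) and 0.138 (0 to 0.620) CPM. Hoxa11os, at the posterior end, went the other way with 0.0431 (0 to 0.190) CPM in iPSM and 0.303 (0.0251 to 1.90) CPM in ESC. The long noncoding RNAs Hotair, in the Hoxc cluster, and Hottip, just beyond the group 13 end of the Hoxa genes, had medians of 0 CPM in both cell types. Of the other rows inside the cluster spans, 11 of 13 tested were higher in iPSM and 1 lower in Hoxa, 5 of 6 higher and 0 lower in Hoxb, and 3 of 5 higher and 1 lower in Hoxd, while 0 of 7 in Hoxc had enough reads. Of all rows tested, 31.3% were higher in iPSM and 28.8% lower. Some of the rows inside the cluster spans overlap Hox genes on the same strand and share their reads, so they are not separate observations.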
